A study of Mus musculus with 6 samples.

Results

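The MHC class II genes and their transactivator Ciita were followed in cancer-associated fibroblasts (CAFs), stromal cells of the tumour, in primary culture after silencing of the transcription factor STAT3. The members were taken by gene symbol from the deposited count table: H2-Aa, H2-Ab1 and H2-Eb1 (class II chains), Cd74 (invariant chain), H2-DMa and H2-DMb1 (peptide loading) and Ciita. All 7 symbols were found, of 24015 in the table. The cells were grown from mammary tumours of NeuT mice, which carry an activated rat Her2/neu transgene, on the BalbC background. The 3 anti-Stat3 samples received nanoparticles with anti-Stat3 siRNA and the 3 control samples nanoparticles with control siRNA, both at 1 ug/mL for 72 hours, and poly(A) RNA was sequenced. The labels do not say whether a culture came from 1 animal or several.

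Class II molecules are pairs of an alpha and a beta chain that present peptides from endosomes to CD4+ T cells. Dendritic cells and B cells carry them without further stimulation. Macrophages carry them to a varying degree, and fibroblasts are known to make them after interferon gamma. This cytokine acts through factors such as IRF1 on the Ciita gene. CIITA binds no DNA itself; it joins the RFX, CREB and NF-Y factors that sit on the X and Y boxes shared by class II promoters.

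Those boxes are shown in the promoters of 3 members, because these members lay at or near 0 counts in the controls and all had their highest count in the same library. RefSeq windows (build GRCm38.p6, from 250 bases before the start of the gene to 50 after it) were matched for 4 of the 7 members. Capitals mark the 11-letter X1 box core, which RFX binds, the CREB-type X2 box (TGACGTCA) and the Y box (CCAAT, or ATTGG on the other strand).

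H2-Aa, chr17:34287774-34288073, minus strand: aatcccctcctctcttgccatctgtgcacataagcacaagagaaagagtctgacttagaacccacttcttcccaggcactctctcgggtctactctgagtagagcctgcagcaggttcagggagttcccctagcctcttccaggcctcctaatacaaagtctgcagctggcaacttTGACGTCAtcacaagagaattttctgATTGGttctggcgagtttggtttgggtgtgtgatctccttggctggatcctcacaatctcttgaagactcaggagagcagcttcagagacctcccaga
H2-Eb1, chr17:34305617-34305916, plus strand: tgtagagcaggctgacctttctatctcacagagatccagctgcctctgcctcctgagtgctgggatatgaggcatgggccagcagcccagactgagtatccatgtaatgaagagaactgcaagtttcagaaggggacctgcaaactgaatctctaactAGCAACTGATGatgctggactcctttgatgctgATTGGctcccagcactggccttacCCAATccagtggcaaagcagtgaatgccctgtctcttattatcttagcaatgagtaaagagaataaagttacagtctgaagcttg
H2-DMb1, chr17:34152941-34153240, plus strand: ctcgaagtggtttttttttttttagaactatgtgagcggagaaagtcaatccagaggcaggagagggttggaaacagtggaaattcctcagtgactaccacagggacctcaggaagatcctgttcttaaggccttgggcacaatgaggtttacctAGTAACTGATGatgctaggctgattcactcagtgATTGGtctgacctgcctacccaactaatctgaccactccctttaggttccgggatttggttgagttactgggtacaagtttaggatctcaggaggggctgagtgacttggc

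The X1 core and the nearest Y box lay 22 bases apart in H2-Eb1 and 23 bases apart in H2-DMb1. The H2-Aa window had no match to the X1 letters, and its X2 box ended 18 bases before its Y box. The X1 letters occurred in 0.968% of all 32851 promoter windows, the Y box letters in 37.4%, both together in 0.387% and the X2 letters in 1.79%, on either strand. Neither a STAT-type site (TTCNNNGAA, in 8.3% of all windows) nor an interferon response element type site (in 3.44%) occurred in these 3 windows. The 2 H2-DMa windows of the table held 1 Y box between them and none of the other motifs. They belong to different start sites, no other start of this gene was searched, and which start the cells used was not tested. A match is a run of letters and not a measured binding site.

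**Figure D1:**
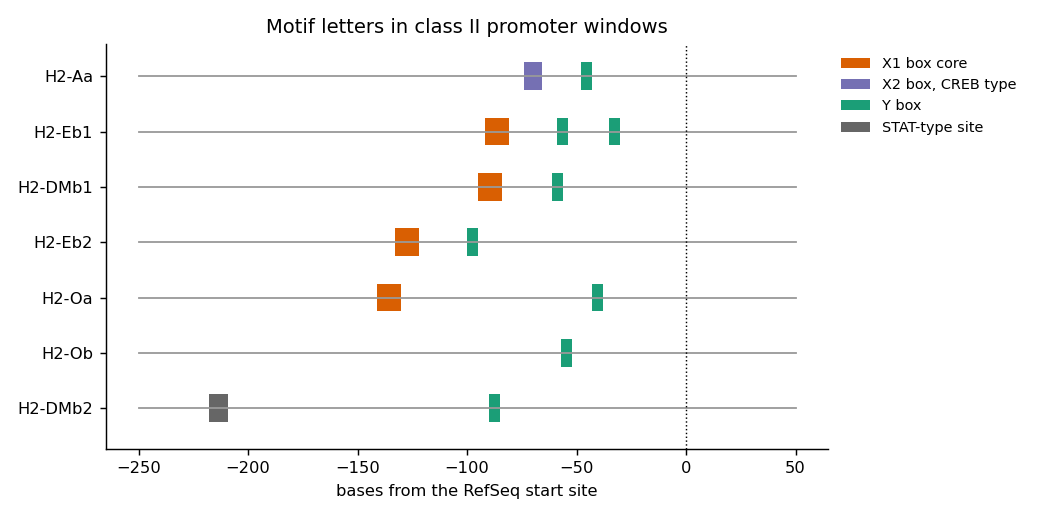
Position of motif letters, in bases from the RefSeq start site (dotted line), in promoter windows of 3 members and of other class II genes. A Y box lies upstream of the start in each of the 7 windows drawn, and an X1 core lies before it in H2-Eb1, H2-DMb1, H2-Eb2 and H2-Oa.

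Libraries held 12998168 to 18683852 counts. Levels are given as counts or as CPM, counts per 1000000 with TMM scaling, and 3 counts, the limit that a count of 0 allows, came to 0.159 to 0.23 CPM. Samples of the same number in the 2 groups resembled each other and are called pairs. Stat3, the targeted gene, averaged 65.1 ± 26.4 CPM in anti-Stat3 samples and 328 ± 95.9 CPM in control samples (SD, n = 3 each), with no overlap. All 10 fibroblast markers were detected, with summed levels of 28114 to 52261 CPM in anti-Stat3 samples and 23880 to 68727 CPM in control samples. All 19 macrophage markers in the table were detected too, and their sum was 46.6, 1773 and 2900 CPM in anti-Stat3 samples 1 to 3, against 50.1, 1807 and 2510 CPM in control samples 1 to 3. Pair 1 thus held few macrophage transcripts and pairs 2 and 3 many, with similar sums for both siRNAs. Lyz2 made up most of the sum in pairs 2 and 3, and single markers differed. Mrc1 had 0.251, 29.1 and 47.3 CPM in anti-Stat3 samples 1 to 3, against 0.27, 43.7 and 77.3 CPM in control samples 1 to 3. Of the 19 markers 5 were higher with anti-Stat3 siRNA in all 3 pairs, against 17.3% of all genes that passed the filter on low counts.

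Ciita, the transactivator, whose exons overlap those of Dexi on the other strand, had 2, 21 and 80 counts in anti-Stat3 samples 1 to 3, against 0, 14 and 7 counts in control samples 1 to 3. In CPM these were 0.125, 1.41 and 6.13 with anti-Stat3 siRNA and 0, 0.74 and 0.419 with control siRNA. Anti-Stat3 sample 3 stood above the other 5 samples, pair 1 was under the counting limit with both siRNAs, and the groups overlapped, as they did for all 7 members; among all genes that passed the filter on low counts 4.67% had groups that did not overlap. The ratio of anti-Stat3 to control was 14.6 in pair 3 (95% counting interval 6.78 to 37.5) and 1.91 in pair 2 (0.926 to 4.06). These intervals are exact binomial ones on the counts of 2 libraries and cover counting error only. In bulk RNA, fewer cells of a type and less RNA per cell cannot be told apart.

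H2-Aa, the alpha chain of the I-A molecule, had 0, 9 and 39 counts in anti-Stat3 samples 1 to 3, against 1, 0 and 0 counts in control samples 1 to 3. In anti-Stat3 samples 2 and 3 it was at least 3.82-fold and at least 16.6-fold higher than in their control partners taken at 3 counts per library, and the exact 95% counting intervals of these ratios, which also cover the error of the 9 and 39 counts, began at 2.51 and 12.9. H2-Eb1, the beta chain of the I-E molecule, had 4, 4 and 36 counts in anti-Stat3 samples and 5, 0 and 0 counts in control samples. In anti-Stat3 sample 3 it was at least 15.4-fold higher than in control sample 3 taken at 3 counts, with a counting interval that began at 11.9. Both chains were thus scarce outside anti-Stat3 sample 3, and H2-Aa in pair 1 was under the limit with both siRNAs.

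H2-Ab1, the beta chain that pairs with H2-Aa, showed another pattern. Its level was 10.2, 9.29 and 20.0 CPM in anti-Stat3 samples 1 to 3, against 10.4, 14.7 and 13.2 CPM in control samples 1 to 3. It was thus present in every library, also in pair 1, where Ciita was at or under the limit. The ratio of anti-Stat3 to control was 0.981 in pair 1 (95% counting interval 0.782 to 1.23), 0.632 in pair 2 (0.511 to 0.778) and 1.51 in pair 3 (1.26 to 1.82). Per kilobase of exon H2-Ab1 averaged 10.9 CPM with anti-Stat3 siRNA and 10.5 CPM with control siRNA, whereas H2-Aa averaged 1.06 and 0.02 CPM per kilobase. The mm9 build is of C57BL/6, whose class II alleles differ from those of BALB/c mice, so reads from polymorphic exons may have been lost to a different degree in each gene. Its part in the gap between the chains was not tested.

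Cd74, the invariant chain that guides class II molecules to endosomes, had 0.877, 7.47 and 19.9 CPM in anti-Stat3 samples 1 to 3, against 0.811, 2.8 and 4.13 CPM in control samples 1 to 3. Anti-Stat3 samples 2 and 3 were higher than every control, and anti-Stat3 sample 1 was lower than control samples 2 and 3, so that the groups overlapped. The ratio of anti-Stat3 to control was 1.08 in pair 1 (95% counting interval 0.464 to 2.56), 2.67 in pair 2 (1.9 to 3.77) and 4.82 in pair 3 (3.68 to 6.38).

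H2-DMa and H2-DMb1 encode the chains of H2-DM, which exchanges the invariant chain peptide for antigen. H2-DMa had 10.6, 10.4 and 22.3 CPM in anti-Stat3 samples 1 to 3, against 14.1, 12.9 and 14.4 CPM in control samples 1 to 3. Like H2-Ab1 it was present throughout, lower with anti-Stat3 siRNA than with control siRNA in pairs 1 and 2 and higher in pair 3. H2-DMb1 had 7, 2 and 21 counts in anti-Stat3 samples, against 3, 1 and 1 counts in control samples. Its ratio in pair 3 was 26.9, with a counting interval of 4.32 to 1111, since the control held 1 count. H2-DMb1 and its neighbour H2-DMb2 are similar in sequence, so the split of reads between them is uncertain.

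All 7 members had their highest level in anti-Stat3 sample 3. Among all 13284 genes that passed the filter on low counts 25.1% were highest in that library, the largest share of the 6. The sizes differed: within pair 3 the log2 change was 4.61 for H2-Aa, 4.50 for H2-Eb1, 3.52 for Ciita, 3.21 for H2-DMb1, 2.23 for Cd74, 0.62 for H2-DMa and 0.59 for H2-Ab1. These are differences of log2 CPM with a prior count of 2, which draws low genes towards 0. Over the 3 pairs the mean log2 change was 2.18 ± 2.63 for H2-Aa, 1.95 ± 2.42 for H2-Eb1, 1.78 ± 1.51 for Ciita, 1.51 ± 1.48 for H2-DMb1 and 1.24 ± 1.08 for Cd74 (SD, n = 3 pairs). It was -0.03 ± 0.62 for H2-Ab1 and -0.03 ± 0.57 for H2-DMa.

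**Figure D2:**
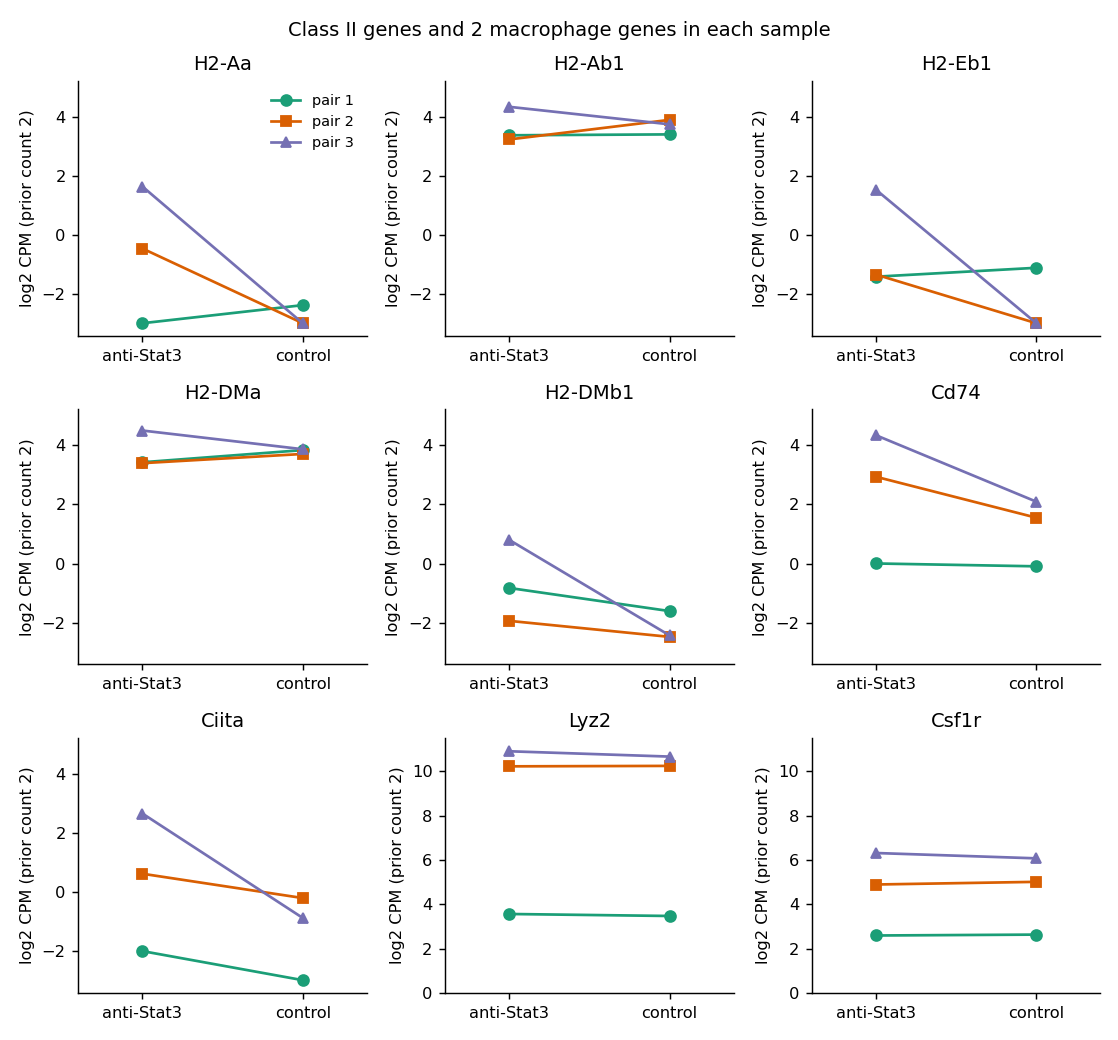
Log2 CPM (prior count of 2) of the 7 members and of Lyz2 and Csf1r in each sample, with a line for each pair. All 7 members are highest in anti-Stat3 sample 3, while Lyz2 and Csf1r differ between pairs and little between siRNAs; the last 2 panels have another vertical scale.

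The test across all genes used edgeR's quasi-likelihood F test with no term but the siRNA, and a gene was called at a Benjamini-Hochberg adjusted p below 0.05. Of the 7 members 4 passed the filter on low counts, Cd74, Ciita, H2-Ab1 and H2-DMa, and H2-Aa, H2-Eb1 and H2-DMb1 did not. None of the 4 was called, and of all 13284 genes 0 (0%) were called. At an unadjusted p under 0.05 this test had 235 genes (1.77%) and none of the 4 members. The log2 change was 1.86 ± 1.07 for Cd74 (SE, unadjusted p = 0.131), 2.66 ± 1.46 for Ciita (unadjusted p = 0.115), 0.04 ± 0.34 for H2-Ab1 and 0.06 ± 0.33 for H2-DMa, with adjusted p-values of 1. The same edgeR test without the filter held all 7 members and called 0% of 18760 genes, 312 of which, with H2-Aa and H2-DMb1 among them, had an unadjusted p under 0.05. It gave log2 changes of 5.41 ± 1.85 for H2-Aa (SE, unadjusted p = 0.021), 3.28 ± 1.54 for H2-Eb1 (unadjusted p = 0.069) and 2.74 ± 1.06 for H2-DMb1 (unadjusted p = 0.035), each with an adjusted p of 1. Fitted changes of genes this scarce depend on the prior count. DESeq2 with the siRNA as the only term also called none of the 4, where it called 0.128% of all genes.

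With the pair as a block, Cd74 passed in 1 of 3 tools. DESeq2 with the block gave Cd74 a log2 change of 1.45 ± 0.40 (SE) with an adjusted p of 0.026, where the fit called 1.66% of all genes and 0.873% as higher. Ciita missed the threshold there, with a log2 change of 2.49 ± 0.80 and an adjusted p of 0.086. Blocked edgeR gave Cd74 a log2 change of 1.62 ± 0.33 (adjusted p = 0.17) and Ciita 2.46 ± 0.62 (adjusted p = 0.198), and blocked limma-voom gave adjusted p-values of 0.122 and 0.153. These 2 fits called 0.0602% of all genes each and none of the members. H2-Ab1 and H2-DMa lay between -0.03 and 0.01 in the 3 blocked fits, all under their SE. The log2 change of Cd74 was above 0 in all 3 pairs, as it was for 17.3% of all tested genes, but in pair 1, at 14 counts with anti-Stat3 siRNA and 12 with control siRNA, it was within counting error. No direction can be read for Ciita in pair 1.

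The values of Cd74 rested on pairs 2 and 3. That of Ciita was clear of counting error in pair 3 only, as its pair 2 ratio of 1.91 had an interval of 0.926 to 4.06. Without pair 1, blocked edgeR called both higher, Cd74 at 1.88 ± 0.25 (adjusted p = 2.9e-04) and Ciita at 2.45 ± 0.53 (adjusted p = 0.013; SE), where it called 5.2% of all genes and 3.02% as higher. Blocked DESeq2 without pair 1 called Cd74 (adjusted p = 1.3e-04), where it called 3.19% of all genes, and not Ciita (adjusted p = 0.071). Without pair 2 or without pair 3 neither tool called a member: the Cd74 adjusted p was 0.571 and 1 in blocked edgeR and 1 each time in blocked DESeq2. Without pair 2 these tools called 0.0225% and 0.105% of all genes, and without pair 3 0% and 0.147%. Ciita without pair 3 had log2 changes of 1.08 ± 0.59 in blocked edgeR and 1.65 ± 1.57 in blocked DESeq2 (SE). It did not pass the filter without pair 2. Without anti-Stat3 sample 3, which breaks a pair, the log2 change in edgeR with the siRNA alone was 0.68 for Cd74, 0.94 for Ciita, -0.39 for H2-Ab1 and -0.40 for H2-DMa.

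**Figure D3:**
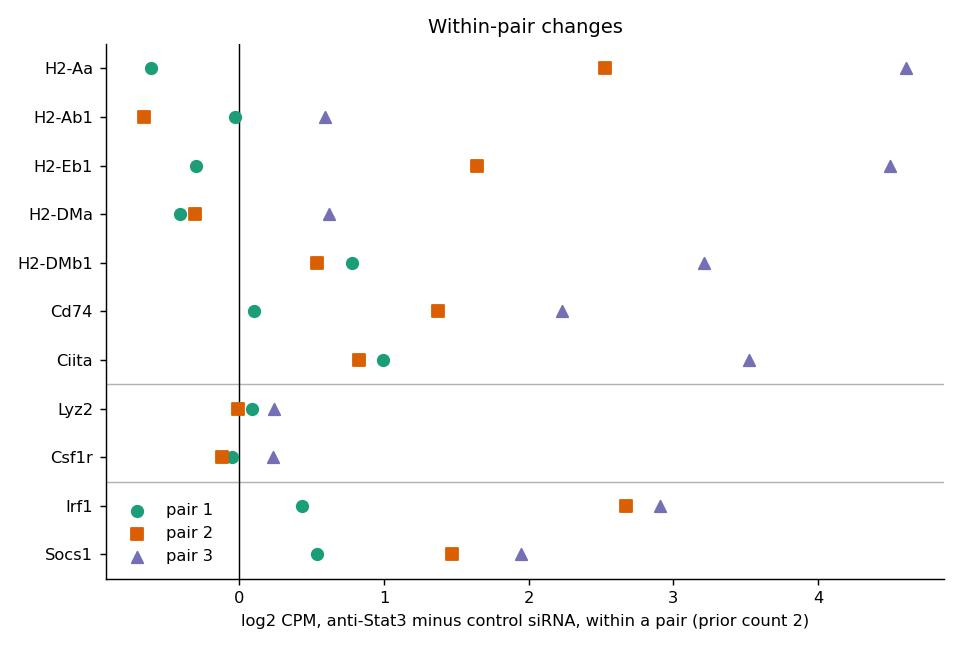
Within-pair difference of log2 CPM (anti-Stat3 minus control siRNA, prior count of 2) for the 7 members, for the macrophage genes Lyz2 and Csf1r and for Irf1 and Socs1 of interferon gamma signalling. Lyz2 and Csf1r lie between -0.12 and 0.24 in all pairs, and Irf1 has 0.43 in pair 1, 2.67 in pair 2 and 2.91 in pair 3.

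Macrophages can carry class II molecules, so the members were set beside Lyz2, the macrophage lysozyme, and Csf1r, the receptor of the macrophage growth factor CSF1. Lyz2 had 11.6, 1196 and 1906 CPM in anti-Stat3 samples 1 to 3, against 10.9, 1207 and 1612 CPM in control samples 1 to 3. Csf1r had 5.89, 29.5 and 79.1 CPM in anti-Stat3 samples, against 6.08, 32.2 and 67.3 CPM in control samples. Both genes differed widely between pairs and little between siRNAs, with log2 changes of 0.09, -0.01 and 0.24 for Lyz2 and -0.05, -0.12 and 0.23 for Csf1r in pairs 1 to 3. Neither was called in any of these fits. Of the 19 macrophage markers, blocked edgeR without pair 1 called 1 lower and 0 higher, where it called 5.2% of all genes.

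Relative to the mean of Lyz2 and Csf1r, the log2 change of Cd74 was 0.08, 1.44 and 2.00 in pairs 1 to 3, and that of Ciita was 0.97, 0.90 and 3.28. The pair 1 value of Ciita came from 2 counts against 0, gives no direction, and was 2.28 with a prior count of 0.5. It also enters the Ciita means over pairs and without pair 3. The means over pairs were 1.17 ± 0.99 for Cd74, 1.71 ± 1.36 for Ciita, 2.11 ± 2.54 for H2-Aa, 1.88 ± 2.30 for H2-Eb1 and 1.45 ± 1.33 for H2-DMb1 (SD, n = 3 pairs). They were -0.09 ± 0.47 for H2-Ab1 and -0.09 ± 0.43 for H2-DMa. Each was close to the value before this adjustment. Without pair 3 the means were 0.98 for H2-Aa, 0.69 for H2-Eb1, 0.68 for H2-DMb1, 0.76 for Cd74 and 0.93 for Ciita. Another standard was the median level of all 19 macrophage markers within each library, which differed by 0.92 in pair 1 and -0.24 in pair 3. With it Cd74 had -0.82 and Ciita 0.07 in pair 1, and 2.47 and 3.75 in pair 3. The gene at the median can differ between libraries. The median of the changes of the same markers, gene by gene, was 0.09 in pair 1 and 0.24 in pair 3. Cd74 in pair 1 thus had another sign under the standard of median levels, most of whose genes had few counts there. No exact test was made, since with 3 pairs its smallest two-sided p is 0.25.

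Counted per 1000 Csf1r reads of the same library, Cd74 had 149, 253 and 252 reads in anti-Stat3 samples 1 to 3, against 133, 87.0 and 61.4 reads in control samples 1 to 3. Per 1000 Lyz2 reads Cd74 had 75.3, 6.24 and 10.5 in anti-Stat3 samples and 74.1, 2.32 and 2.56 in control samples. Cd74 was thus higher per read of either gene with anti-Stat3 siRNA in pairs 2 and 3, and about equal in pair 1. Exons of Csf1r overlap those of Hmgxb3 on the other strand, and whether Hmgxb3 reads were counted as Csf1r was not tested. Adding the mean log2 CPM of Lyz2 and Csf1r as a covariate to edgeR with the siRNA gave Cd74 a log2 change of 1.37 ± 0.45 and Ciita 2.35 ± 0.67 (SE), neither of which passed (adjusted p of 1 for both). Which cells made the transcripts was not tested.

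**Figure D4:**
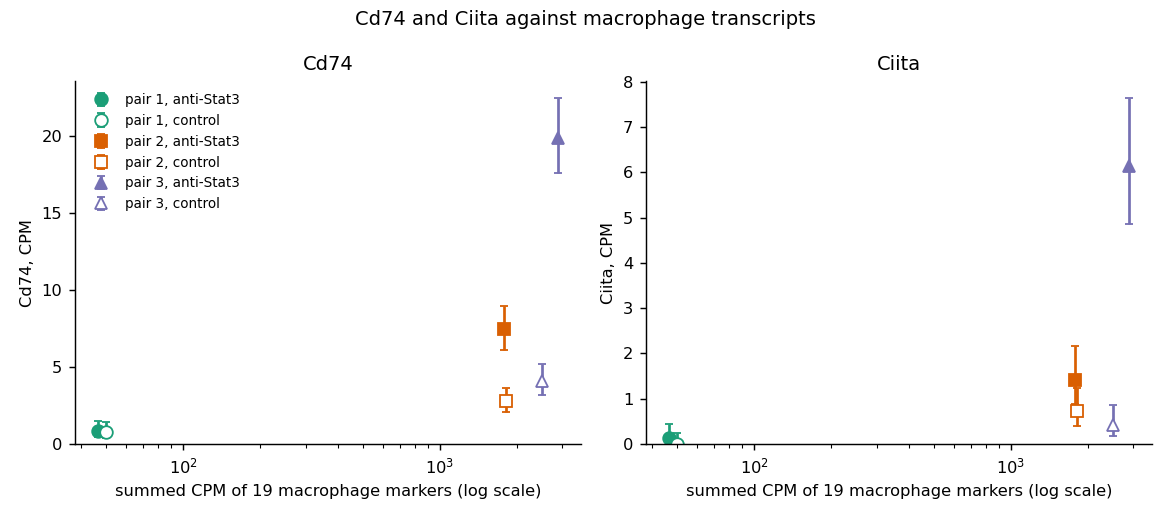
Level of Cd74 and Ciita (CPM, with exact 95% Poisson intervals that cover counting error only) against the summed CPM of 19 macrophage markers on a log axis. In pairs 2 and 3 the anti-Stat3 sample (filled) lies above its control (open) at a similar macrophage sum, with Cd74 at 19.9 CPM in anti-Stat3 sample 3 and 4.13 CPM in control sample 3.

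Markers of the other cells known for class II were scarce. The 10 dendritic cell markers summed to 72, 141 and 157 counts in anti-Stat3 samples 1 to 3, against 73, 129 and 196 counts in control samples 1 to 3, and Flt3, Cd209a and Siglech had 0 counts in every library. Itgax, which macrophages also express, and Zbtb46 were the only dendritic cell markers that passed the filter. The other 5, Xcr1, Clec9a, Ccr7, Batf3 and Clec10a, had 0 to 7 counts in anti-Stat3 samples and 0 to 12 in control samples. Of these, Clec9a had 2, 6 and 3 counts and Batf3 1, 1 and 2 counts in anti-Stat3 samples 1 to 3, with 0 in every control sample. Xcr1 had 7, 3 and 2 counts against 12, 0 and 4 in control samples, and Clec10a 0, 1 and 1 against 3, 3 and 3. Ccr7 had 0, 0 and 1 counts with each siRNA. The 8 B cell markers summed to 0.376, 2.29 and 3.22 CPM in anti-Stat3 samples, against 0.541, 1.64 and 3.17 CPM in control samples. Cd22 made up 1, 29 and 42 counts of the 6, 34 and 42 in anti-Stat3 samples, and 2, 27 and 52 counts of the 8, 31 and 53 in control samples. The 9 T and NK cell markers in the table summed to 0.336 to 0.537 CPM in anti-Stat3 samples and 0.135 to 0.24 CPM in control samples, and Cd3d, Cd3g, Cd8a and Ncr1 were at 0. Epithelial markers, 9 in all, differed by pair, with 137, 401 and 44.2 CPM in anti-Stat3 samples and 139, 397 and 42.3 CPM in control samples.

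Genes of interferon gamma signalling, the route known to switch on Ciita, had a median log2 change of 0.22 over 11 tested members of 12, against -0.0028 over all tested genes, in edgeR with the siRNA alone, which called none. Ifng itself had 1, 1 and 0 counts in anti-Stat3 samples and 0 in every control sample. Irf1 had 60.9, 181 and 227 CPM in anti-Stat3 samples 1 to 3, against 45.1, 28.2 and 30.0 CPM in control samples 1 to 3, with no overlap. It was called in DESeq2 with the siRNA alone (log2 change 2.18 ± 0.49 SE, adjusted p = 0.011) and not in DESeq2 with the block (adjusted p = 0.146).

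Socs1, a feedback inhibitor of that route, rose in DESeq2 with the block by 1.38 ± 0.31 (SE, adjusted p = 0.0012) and did not pass in blocked edgeR (adjusted p = 0.16). Its level was 5.26, 9.02 and 32.6 CPM in anti-Stat3 samples, against 3.58, 3.17 and 8.33 CPM in control samples, and so was highest in anti-Stat3 sample 3, as the class II members were. Without pair 1, blocked edgeR called Irf1 (log2 change 2.80) and Socs1 (1.77) higher, where it called 3.02% of all genes as higher, and no member of the list lower. The receptor chain Ifngr1 (log2 change 0.22 ± 0.13 SE) and the kinase Jak2 (-0.26 ± 0.13) did not pass in any of the fits over all 6 samples.

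The promoter-binding factors with which CIITA acts did not move in a common direction. All 7 were tested, with a median log2 change of -0.10, and none was called in edgeR with the siRNA alone or in the 3 blocked fits. Rfx5, the DNA-binding subunit of RFX, had 19.4 ± 0.749 CPM in anti-Stat3 samples and 15.9 ± 1.86 CPM in control samples (SD, n = 3 each), and Creb1 had 44.9 ± 10.1 and 52.6 ± 11.1 CPM. Their log2 changes were 0.29 ± 0.16 and -0.23 ± 0.23 (SE).

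Genes of endosomal antigen processing had a median log2 change of 0.04 over 14 tested members, and none was called in edgeR with the siRNA alone or in the 3 blocked fits. The list holds the cathepsins, the thiol reductase Ifi30 and the ligase gene March1, whose protein removes class II from the cell surface. Ctss, the cathepsin that trims the invariant chain, had 9, 1486 and 1789 counts in anti-Stat3 samples 1 to 3, against 13, 1501 and 2045 counts in control samples 1 to 3, and so followed the pairs. Sppl2a, the protease that cuts the last stub of the invariant chain, had 169, 196 and 162 CPM in anti-Stat3 samples, against 157, 123 and 102 CPM in control samples. It was called without pair 1 in blocked edgeR, at 0.67 ± 0.16 (SE, adjusted p = 0.022), as 1 of the 14 genes, where that fit called 5.2% of all genes.

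Of 11 co-stimulatory and checkpoint ligands 8 were tested, with a median log2 change of 0.24 and none called in edgeR with the siRNA alone or in the 3 blocked fits. Cd274, which encodes the inhibitory ligand PD-L1, had 26.7, 43.1 and 28.3 CPM in anti-Stat3 samples, against 21.8, 4.81 and 3.65 CPM in control samples, with no overlap. Without pair 1, blocked edgeR called Cd274 (log2 change 3.06), Cd40 (1.19) and Cd80 (0.79) higher, where it called 3.02% of all genes as higher, and blocked DESeq2 called Cd274 alone of the 3. Cd80 and Cd40 bind CD28 and CD40 ligand on T cells. Cd86, the other CD28 ligand, had 3, 24 and 10 counts in anti-Stat3 samples, against 1, 30 and 22 counts in control samples.

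**Figure D5:**
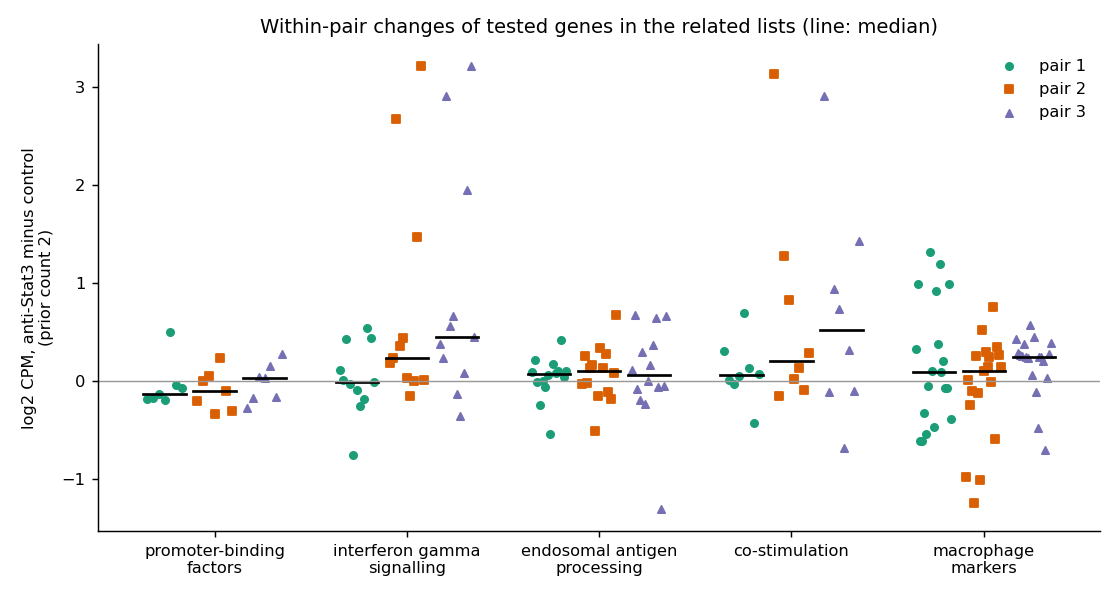
Within-pair differences of log2 CPM (anti-Stat3 minus control siRNA, prior count of 2) for each tested gene of 4 lists related to class II presentation and of the macrophage markers; black lines are medians. The interferon gamma list has medians of -0.01, 0.23 and 0.45 in pairs 1 to 3, and the macrophage markers 0.09, 0.10 and 0.24.

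Over the 6 samples the genes whose log2 CPM most resembled the mean of H2-Aa, H2-Ab1, H2-Eb1 and Cd74, among 11909 genes whose mean log2 CPM was 1 or more, were Tmem204 (Pearson r = 0.998), Wars (0.974), Glb1 (0.970), Blvra (0.967), Tsc22d3 (0.967), Lrp10 (0.966), Tssc4 (0.965), Timm44 (0.965), Stx4a (0.962) and Ly6c1 (0.960). Wars, a tryptophanyl-tRNA synthetase gene, had 87.2, 198 and 337 CPM in anti-Stat3 samples 1 to 3, against 87.6, 86.5 and 110.0 CPM in control samples 1 to 3. Ly6c1, a surface protein gene, had 9.46, 32.6 and 82.9 CPM in anti-Stat3 samples, against 7.64, 5.39 and 8.33 CPM in control samples. Both thus had the order of Cd74 among the anti-Stat3 samples. Closest to Ciita alone were Clec2d (0.999), Sgsm2 (0.994), Spon2 (0.993), Hsd17b11 (0.988) and Cox15 (0.987). Lyz2 and Csf1r had r of 0.50 and 0.58 with the class II mean and of 0.81 and 0.81 with Ciita. The 6 points share libraries and pairs and the highest of them is anti-Stat3 sample 3, so these values describe the samples only.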

How the data were processed

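The submitters' processing notes name TopHat2 2.0.10, HTSeq and build mm9. The authors deposited raw counts per gene symbol, not normalised. Neither strand use nor the treatment of shared reads is stated, so reads of similar or overlapping genes may be split differently than assumed. In the GENCODE M21 annotation of GRCm38, used here for exon lengths and overlaps only, Ciita shares 111 exonic bases with Dexi. Csf1r shares 873 of its 4885 exonic bases with Hmgxb3 on the other strand, and Cd74 shares 12 with Mir5107. Column names begin with "sh" where sample titles begin with "si"; each was matched by group and number.

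Counts were tested in R 4.3.3 with edgeR 4.0.16 (quasi-likelihood F test, TMM, siRNA as the sole term, Benjamini-Hochberg threshold 0.05). Its filterByExpr step, at a minimum count of 10 and total of 15, kept 13284 genes. Alternatives were DESeq2 1.42.0, limma-voom from limma 3.58.1, a pair block, other scalings, no filter, a naming-scheme batch term, a macrophage covariate and left-out samples or pairs. No label ties the replicates to separate cultures or animals, and p-values then cover the spread of these samples, which may be technical. Across genes, deviations from the group means correlated at 0.82 to 0.83 within a number, so the numbers were taken as pairs. The deviations correlated at -0.16 or below across numbers. Deviations cancel within a group, so these negative values follow on average from the positive ones and are no separate evidence of pairing. What a number shares is not known.

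Tested on simulated data for this comparison (3 simulations of about 13167 genes), edgeR with the siRNA alone recovered 30% of genes changed 4-fold and 0% of those changed 2-fold. With the block it recovered 99.7% and 90%. These shares were not split by level, so recovery at counts as low as those of Ciita, H2-Aa, H2-Eb1 and H2-DMb1 was not tested. Recovery of changes that differ in size between pairs was not tested either. The false share of calls was 10.1% for edgeR with the block, 9.9% for DESeq2 with the block and 8.7% for limma-voom, more than the 5% aimed at.

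Members and lists were chosen with earlier results of these data known. Named genes were the members, Lyz2, Csf1r, Stat3, list genes called in a blocked fit (or else the 2 of lowest p in unblocked edgeR) and the 10 and 5 genes of most similar pattern. Ifng, Ifngr1, Jak2, Ctss, Cd86 and the markers named one by one were added after their values were seen, as was the X2 motif. Some results are not reported here.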

Additional observations from a re-analysis of the deposited data

How the results depend on the processing

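Across all genes the test with the siRNA alone called 0, against 8 in edgeR with the replicate block, 220 in blocked DESeq2, 8 in blocked limma-voom, 17 in DESeq2 without the block and 0 to 40 with a sample left out. Without pair 1, 2 or 3 blocked edgeR called 704, 3 and 0 genes and blocked DESeq2 432, 14 and 20. Of the members, blocked DESeq2 called 1 (Cd74), as it did without pair 1, blocked edgeR called 2 without pair 1, and every other alternative called 0. Of the related gene lists, blocked DESeq2 called 1 (Socs1), DESeq2 without the block 1 (Irf1), fits with a sample left out 0 to 1, and fits without pair 1 called 7 (edgeR) and 5 (DESeq2). Over all 6 samples, the block changed no other call among the members and related lists in edgeR or DESeq2. The log2 change of H2-Ab1, 0.04, was -0.02 in blocked edgeR, -0.03 in blocked DESeq2, -0.0026 in blocked limma-voom, -0.05 with the naming scheme as a batch term and -0.39 to 0.23 with a sample left out. Without pair 1, 2 or 3 it was -0.02, 0.29 and -0.35 in blocked edgeR and -0.02, 0.29 and -0.34 in blocked DESeq2. That of H2-DMa, 0.06, was -0.02 and -0.03 in these blocked fits, -0.03 with the batch term and -0.40 to 0.24 with a sample left out; without pair 3 it was -0.36 in both. The cause was not tested. That scheme, in the sample descriptions, sets pair 3 apart from pairs 1 and 2, where Cd74 had a log2 change of 1.03 in blocked edgeR. Over all alternatives that tested them Cd74 lay at 0.68 to 2.40 and Ciita at 0.94 to 3.52; without pair 2, Ciita did not pass the filter. The mean changes relative to macrophage genes moved by less than the SD over pairs under the alternatives tried, but that SD is wide: without a pair they ranged from 0.98 to 3.49 for H2-Aa, 0.69 to 2.99 for H2-Eb1, 0.93 to 2.12 for Ciita and 0.76 to 1.72 for Cd74, and with a prior count of 0.5 they were 3.02, 3.04, 2.26 and 1.19. With the median level of all macrophage markers as the standard H2-DMa in pair 1 was -1.33, against -0.43. Counts of 0 to 9 limit H2-Aa, H2-Eb1 and H2-DMb1 in every library but anti-Stat3 sample 3.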

Other observations

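The 5 other class II genes in the table, none of which passed the filter, summed to 2, 4 and 20 counts in anti-Stat3 samples 1 to 3, against 5, 3 and 2 counts in control samples 1 to 3. H2-DMb2 had 1, 2 and 11 counts in anti-Stat3 samples 1 to 3, against 4, 2 and 1 counts in control samples 1 to 3. H2-Ea-ps, the symbol for the alpha chain of the I-E molecule, had 0, 0 and 9 counts in anti-Stat3 samples and 0 in every control sample. C57BL/6 mice are known not to make this chain, whereas BALB/c mice make it. H2-Oa and H2-Ob, which encode the inhibitor of H2-DM, had at most 2 counts in any library, and H2-Eb2 had 0 in all.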
